A study of Mus musculus with 6 samples.

Results

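The loci of 8 transcription factor genes were described here by the open chromatin around them: 3 Krüppel-like factors (*Klf4*, *Klf2* and *Klf5*), 3 CCAAT/enhancer-binding proteins (*Cebpa*, *Cebpb* and *Cebpd*) and 2 pluripotency factors (*Nanog* and *Pou5f1*). ATAC-seq measures accessible chromatin through the sites that a transposase can reach, and its peaks were taken where they overlapped the gene or the 50 kb on each side of it (GENCODE M21, GRCm38). Peaks of the 6 libraries that overlapped by at least 1 bp were merged into regions. The 8 genes, of 21911 protein-coding genes, had 71 of the 119719 merged regions. *Klf4* and *Cebpa* entered the list because the study names them as expressed at a lower level in the mutant, and expression was not analysed here.

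All 6 libraries came from cultures of neural stem cells (NSCs) from the subependymal zone (SEZ) of 10-week-old mice. Every library, in both states, lacked *Srr2*, a *Sox2* enhancer removed with CRISPR-Cas9 (Srr2 del/del), so what is compared is 2 states of the mutant and not mutant with wild type. Proliferating cultures (PROLIF) had 2 days in vitro (2 DIV) with FGF on Matrigel; the series text gives 3 DIV for the proliferating cells, and the label of each sample, with 2 DIV, was followed. Early differentiating cultures (DIFF, 2+1 DIV) had 1 further day without mitogens in 2% fetal bovine serum. Each state had 3 libraries, replicates 1, 2 and 4. The study describes paired RNA-seq and ATAC-seq of the same cultures, and does not say that same-numbered libraries of the 2 states share a culture. The study made the deletion with separate pairs of guides, and the labels do not say which strain was used or whether animals were pooled.

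Krüppel-like factors are zinc finger proteins that bind GC-rich and CACCC-type sequences. *Klf4*, *Klf2* and *Klf5* act together in the self-renewal of embryonic stem cells, and *Klf4* is one of the reprogramming factors; in the brain, KLF proteins are also known for limits on axon growth. CCAAT/enhancer-binding proteins are leucine zipper factors: *Cebpa* is known for myeloid and fat cell differentiation and growth arrest, *Cebpb* and *Cebpd* for responses to inflammation and for glial genes. *Nanog* and *Pou5f1* (OCT4) hold the pluripotent state and are silent in most somatic cells, while *Sox2*, their partner there, stays on in neural stem cells.

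The deposited lists held from 60006 to 88039 peaks. The background pileup was from 2.85 to 3.63 reads in 5 libraries and 6.01 in DIFF replicate 4. It is a low value (percentile 1) of the local background at the called peaks of a library, and a stand-in for its depth. Because this stand-in differed between libraries, each peak was given its percentile by −log10 p within its own list, where 100 is the strongest. A region without a peak had a signal under the threshold of the peak caller, which is not the same as closed chromatin. In bulk cultures, fewer cells with an open site and a less open site in each cell cannot be told apart. With 3 libraries against 3, the two-sided exact permutation test cannot give a p below 0.1. Of 8 neural stem and progenitor markers, all 8 had a promoter peak in all 6 libraries, from percentile 53.8 to 99.3. Microglial *Cx3cr1*, *Itgam* and *Spi1* and endothelial *Cdh5* and *Tek* had none in any library. A peak in all libraries was found at 1 of 5 microglial, 1 of 4 endothelial and 2 of 3 neuronal markers. Of these, endothelial *Pecam1* had a promoter peak in the 3 PROLIF libraries alone, and neuronal *Snap25* stood higher in every DIFF library. Neuronal *Syt1* and *Rbfox3* overlapped between the states. Among the stem and progenitor markers, *Nes* stood higher in every PROLIF library, at 86.6, 74.5 and 72.9 against 53.8, 66.8 and 62.0. *Sox9* stood higher in every DIFF library, at 86.9, 87.3 and 88.2 against 84.9, 85.8 and 86.8. Such separation was seen at 3.59% of protein-coding genes for PROLIF and 17.9% for DIFF. The part of these markers in the results was not tested.

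Most open chromatin around the 8 genes was present in both states. Of the 71 regions, 38 had a peak in all 6 libraries, which is 53.5% beside 33.5% of all merged regions. Only 1 region had peaks in every PROLIF library and in no DIFF library (1.41% beside 1.79% of all regions), and 4 had the reverse (5.63% beside 3.48%). The other 28 were mixed, and 14 of these were called in 1 library alone, 5 of them in DIFF replicate 4. With counts of 1 and 4, neither share is read as different from the background. More than 3 kb from every annotated start site lay 42 of the 71 regions.

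The loci differed in how many regions they held. *Nanog* had 13 regions, *Cebpb* 12, *Cebpa* and *Pou5f1* 10 each, *Klf4* 9, *Klf2* 8, *Cebpd* 5 and *Klf5* 4. Scaled to the length of the window, the densest loci were *Nanog* with 12.1 regions per 100 kb and *Cebpb* with 11.8, and the sparsest was *Klf5* with 3.44, beside a median of 6.34 over the protein-coding genes. Peaks in the 8 windows numbered 55, 49 and 49 in PROLIF replicates 1, 2 and 4. The DIFF replicates 1, 2 and 4 had 48, 58 and 61. The means were 51.0 ± 3.46 and 55.7 ± 6.81 peaks (SD, n = 3 each), and the counts of the 2 states overlapped (exact permutation test, two-sided, p = 0.4). The length covered was 23.8 ± 2.77 kb in PROLIF and 23.7 ± 1.96 kb in DIFF (SD, n = 3 each; exact permutation p = 1).

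**Figure D1:**
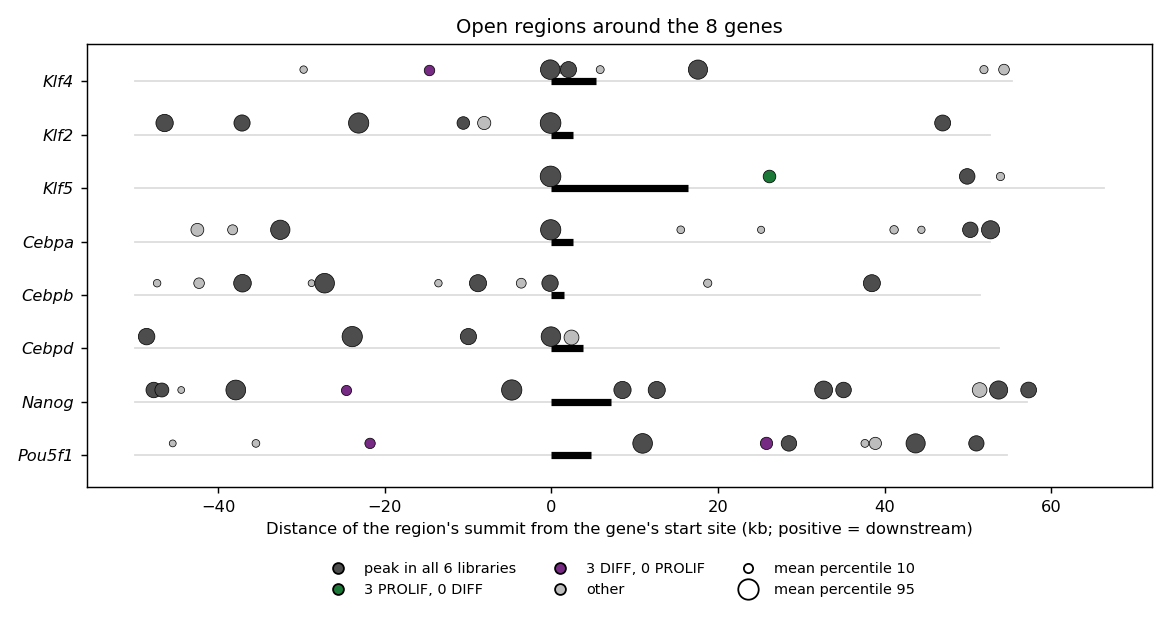
Regions of open chromatin around the 8 genes, placed by the distance of the summit from the start site of the gene in kb (negative is upstream, positive is downstream). Black bars are the gene bodies, circle area grows with the mean percentile over 6 libraries (no peak counted as 0), and colour gives the libraries with a peak; 38 circles are dark grey, 1 is green and 4 are purple.

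The promoters fell into 2 kinds. *Klf4*, *Klf2*, *Klf5*, *Cebpa*, *Cebpb* and *Cebpd* each had a peak within 3 kb of a start site in all 6 libraries, as did 64.4% of protein-coding genes. *Nanog* and *Pou5f1* had none in any library, as for 25.4% of protein-coding genes. In the 1000 bases upstream, the number of CpG dinucleotides was 145 at *Cebpb*, 115 at *Klf4*, 105 at *Cebpa*, 102 at *Klf5*, 99 at *Cebpd* and 75 at *Klf2*. It was 30 at *Pou5f1* and 17 at *Nanog*, a ratio of observed to expected CpG of 0.332 and 0.287, against 0.712 to 1.01 at the other 6 genes. The reference sequences of 150 bases that end at the start site are shown for *Klf4* and *Cebpa*, with open promoters, and for *Nanog* and *Pou5f1*, without a peak. They are given in the direction of the gene, with CpG dinucleotides in capitals, and none overlaps an annotated exon.
Klf4, chr4:55532467-55532616, minus strand: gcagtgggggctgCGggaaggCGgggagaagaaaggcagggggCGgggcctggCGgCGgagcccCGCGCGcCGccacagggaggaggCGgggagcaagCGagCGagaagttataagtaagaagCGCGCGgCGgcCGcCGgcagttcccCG
Cebpa, chr7:35119143-35119292, plus strand: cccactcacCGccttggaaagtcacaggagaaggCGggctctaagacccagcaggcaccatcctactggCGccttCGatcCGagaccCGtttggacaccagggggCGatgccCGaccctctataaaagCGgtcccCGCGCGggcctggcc
Nanog, chr6:122707339-122707488, plus strand: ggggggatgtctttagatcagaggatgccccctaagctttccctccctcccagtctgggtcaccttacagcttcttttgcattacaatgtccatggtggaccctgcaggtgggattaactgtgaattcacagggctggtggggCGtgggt
Pou5f1, chr17:35505868-35506017, plus strand: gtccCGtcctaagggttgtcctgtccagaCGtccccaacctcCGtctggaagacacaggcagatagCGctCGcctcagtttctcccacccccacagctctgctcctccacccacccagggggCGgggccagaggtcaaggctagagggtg
These stretches hold 19 CpG dinucleotides at *Klf4* and 12 at *Cebpa*, but 1 at *Nanog* and 6 at *Pou5f1*. In the RefSeq promoter table of the same build, which matched 6 of the 8 genes, the *Klf4* promoter had more CpG than 95.4% of the promoters of protein-coding genes. The *Nanog* promoter had more than 26.9% of them and that of *Pou5f1* more than 45.5%. In the 150 bases before the start, *Klf5*, with an open promoter, had 8 CpG dinucleotides, close to the 6 of *Pou5f1*.

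Among the open promoters, *Klf2* and *Klf5* were strongest and *Cebpb* weakest. The *Klf2* promoter peak was at percentile 96.9, 96.6 and 98.0 in PROLIF replicates 1, 2 and 4 and at 97.0, 98.2 and 97.9 in the DIFF replicates. That of *Klf5* was at 97.2, 97.4 and 96.1 in PROLIF and at 97.9, 97.5 and 97.6 in DIFF. *Klf5* was the only one of the 8 promoters in which every DIFF library stood above every PROLIF library, a pattern seen at 17.9% of protein-coding genes, and its difference was 0.692 percentile points (exact permutation p = 0.1, the smallest possible, and 0.347 adjusted over 16337 genes). It ranged from 0.295 without PROLIF replicate 4 to 0.943 without PROLIF replicate 2. With lists of equal length (0.471) or the strongest 20000 peaks (1.41) the groups were no longer separated (exact permutation p = 0.3 for both). No promoter of the 8 had every PROLIF library above every DIFF library, a pattern seen at 3.59% of protein-coding genes.

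The *Klf4* promoter peak was at percentile 87.4, 80.4 and 80.1 in PROLIF and at 84.4, 87.8 and 92.0 in DIFF replicates 1, 2 and 4. The difference of 5.44 points was larger than the SD of either group (4.09 in PROLIF and 3.81 in DIFF), and the groups overlapped through PROLIF replicate 1 (exact permutation p = 0.2). Ranked by fold enrichment in place of −log10 p, the *Klf4* difference was 10.4 points and every DIFF library stood above every PROLIF library (exact permutation p = 0.1). By −log10 p that pattern was seen at 17.9% of protein-coding genes. Its share by fold enrichment was not counted, so the separation is not read as particular to *Klf4*. Among the strongest 20000 peaks of each list it was 14.4 points (exact permutation p = 0.2), and without DIFF replicate 4 it was 3.47. *Cebpa* went the other way, with 94.5, 93.4 and 94.4 in PROLIF and 91.4, 94.6 and 90.7 in DIFF, a difference of -1.84 points (exact permutation p = 0.4). Its sign depended on the measure: ranked by fold enrichment, the difference was 2.48 points, and among the strongest 20000 peaks it was -9.61. It was -3.04 without DIFF replicate 2 and -1.06 without DIFF replicate 4. *Cebpd* was at 87.6, 84.6 and 82.6 in PROLIF and at 87.5, 83.5 and 88.0 in DIFF. *Cebpb* varied most, from 33.4 to 64.9 in PROLIF and from 52.5 to 69.7 in DIFF, with overlapping groups (exact permutation p = 0.5).

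In order of mean level, *Klf2* and *Klf5* stood above *Cebpa*, followed by *Cebpd*, *Klf4* and *Cebpb*. The values of *Klf2* and *Klf5* overlapped each other, as did those of *Cebpd* and *Klf4*, so their order is not set by these libraries, and *Klf4* reached into the range of *Cebpa* in DIFF replicate 4. The protein-coding genes whose promoter percentiles over the 6 libraries were nearest to those of *Klf4* were *Sys1* and the overlapping *Gm20458*, with a mean absolute difference of 0.675 points, and *Rnf151* with 0.838. Nearest to *Cebpa* were *Pou2f2* with 0.888, *Pygb* with 0.959 and *Dock10* with 0.980. Such likeness was common, since 136 genes lay within 2 points of *Klf4* and 428 within 2 points of *Cebpa*.

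**Figure D2:**
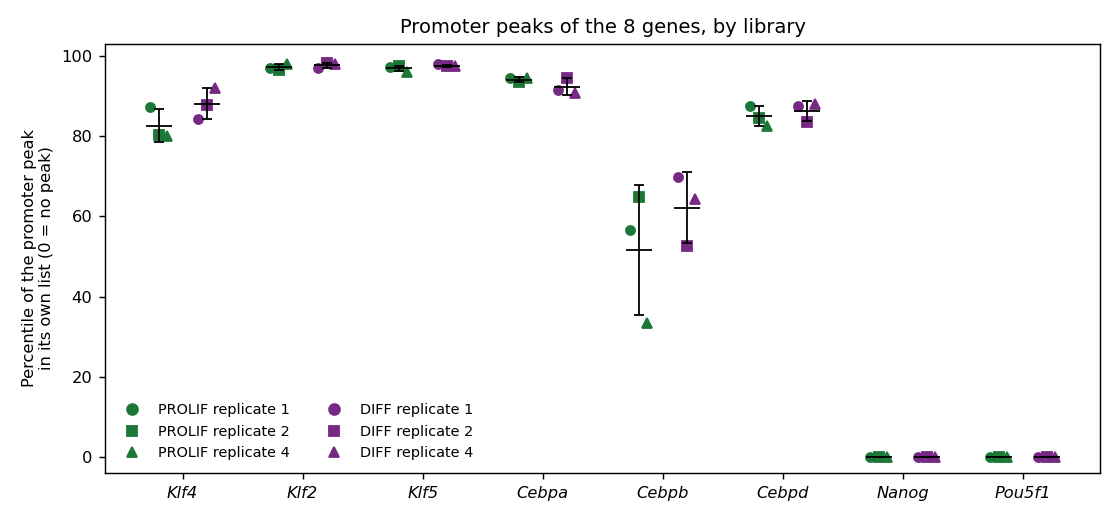
Percentile of the promoter peak of each gene within the peak list of its library, with 0 for no peak (vertical axis), for 3 PROLIF (green) and 3 DIFF (purple) libraries; bars are the mean and SD. *Klf2*, *Klf5* and *Cebpa* lie above 90 in every library, *Cebpb* spreads from 33.4 to 69.7, and *Nanog* and *Pou5f1* have no promoter peak.

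At *Klf4* (ENSMUSG00000003032.8, chr4:55527143-55532466, minus strand), 3 of the 9 regions were found in all 6 libraries. These were the promoter, a weaker region over coding sequence 2050 bp downstream of the start site, and an intergenic region 17594 bp downstream at chr4:55514689-55515322. The last was the strongest distal region, with pileups of 52, 53 and 29 reads in PROLIF and 60, 74 and 86 in DIFF replicates 1, 2 and 4. Its percentile was 80.9, 85.2 and 66.7 in PROLIF and 86.4, 90.1 and 86.2 in DIFF, so every DIFF library stood above every PROLIF library. By limma over all regions found in 6 libraries it did not pass (adjusted p = 0.127), and with replicate number as a block it did (adjusted p = 0.0444). Leaving out PROLIF replicate 4, in which it was lowest, raised the unblocked adjusted p to 0.378. Of the 6 removals, only that of PROLIF replicate 2 gave a pass (adjusted p = 0.0355).

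A DIFF-only region lay 14659 bp upstream of *Klf4*, in intergenic DNA at chr4:55546656-55547388. It had 16, 19 and 25 reads in DIFF replicates 1, 2 and 4 over backgrounds of 3.63, 2.96 and 6.01, which is percentile 24.3, 37.7 and 37.5, and no peak in PROLIF. These are weak peaks, and *Klf4* is the nearest annotated start site. The 121 bases around the summit are shown because this was the only region of the *Klf4* locus that separated the states by occupancy. Capitals mark matches to the 8 motifs searched, and here the match to CAGCTG lay outside the stretch printed.
Klf4 upstream region, chr4:55547065-55547185: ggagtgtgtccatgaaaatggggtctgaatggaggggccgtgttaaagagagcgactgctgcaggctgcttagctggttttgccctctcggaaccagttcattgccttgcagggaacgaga
A region at 54341 bp downstream had a peak in all DIFF libraries and, at percentile 12.8, in PROLIF replicate 1. The remaining 4 regions rested on 1 or 2 libraries each and had mean percentiles of at most 5.58.

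**Figure D3:**
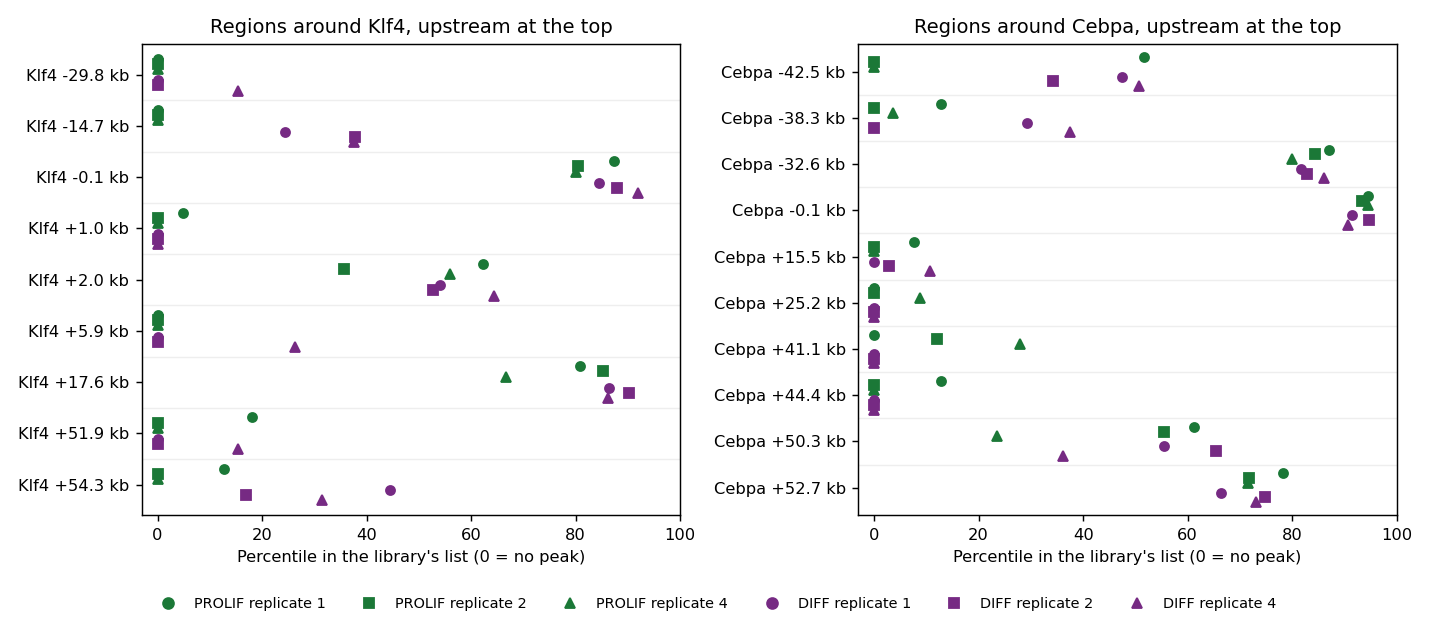
Percentile in each library (horizontal axis, 0 for no peak) of the 9 regions around *Klf4* (left) and the 10 around *Cebpa* (right), labelled by distance from the start site in kb; PROLIF is green and DIFF purple, with 1 symbol for each replicate. The promoters and the *Klf4* region at 17.6 kb are high in every library, and the *Klf4* region at -14.7 kb has peaks in the 3 DIFF libraries.

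At *Klf2* (ENSMUSG00000055148.7, chr8:72319033-72321656, plus strand), 6 of 8 regions were found in all libraries. An intergenic region 23147 bp upstream, chr8:72295434-72296267, was stronger in PROLIF. It had 135, 111 and 90 reads in PROLIF and 79, 91 and 111 in DIFF replicates 1, 2 and 4. The last came from the library with the highest background pileup. Its percentile was 95.8, 96.1 and 95.3 in PROLIF against 89.7, 91.2 and 89.4 in DIFF, with no overlap. This was the only one of the 38 constant regions in which every PROLIF library stood above every DIFF library, a pattern held by 11.7% of all constant regions. In limma, run on ranks turned into normal scores so that 1 unit is 1 SD over regions, it differed by -0.57 ± 0.12 (SE; adjusted p = 0.00232). The call held when any 1 library was left out, with adjusted p from 0.00402 to 0.0200. The nearest start site was that of *Gm10282*, at 8993 bp. The bases around its summit are shown as the firmest difference between the states among the 8 loci. They hold no match in capitals, and the match to CACCC near this summit lay outside the stretch printed.
Klf2 upstream region, chr8:72295826-72295946: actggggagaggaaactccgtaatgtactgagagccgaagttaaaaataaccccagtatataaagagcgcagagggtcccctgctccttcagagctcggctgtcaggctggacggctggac

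Other *Klf2* regions moved in both directions. A region 37152 bp upstream, at chr8:72281605-72282065 and 2089 bp from the start of *Gm39197*, was at percentile 70.9, 59.8 and 76.0 in PROLIF and 29.3, 34.3 and 61.7 in DIFF. It was stronger in PROLIF (difference -1.08 ± 0.28, adjusted p = 0.0128), although DIFF replicate 4 lay above PROLIF replicate 2, and without PROLIF replicate 4 the adjusted p was 0.0653. A region 46974 bp downstream, chr8:72365737-72366267, lay in an intron of *Eps15l1*, a gene of endocytosis. It was stronger in DIFF, at 63.0, 71.3 and 66.7 against 49.4, 44.0 and 25.9 in PROLIF (difference 0.86 ± 0.26, adjusted p = 0.0276). That call was lost when any library but PROLIF replicate 2 was left out. A region 46449 bp upstream was also above in every DIFF library, at 69.3, 71.8 and 73.4 against 61.5, 58.0 and 58.0, and did not pass limma (adjusted p = 0.219).

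*Klf5* (ENSMUSG00000005148.8, chr14:99298691-99315036, plus strand) had the only PROLIF-only region of the 8 loci, in intergenic DNA 26067 bp downstream of its start site at chr14:99324532-99325060. It had 26, 25 and 27 reads in PROLIF replicates 1, 2 and 4 over backgrounds of 2.97, 2.94 and 2.85, at percentile 55.6, 56.0 and 63.3. No DIFF library had a peak there. In DIFF replicate 4, called pileups began at 15 reads, against 10 or 11 in the other libraries. The summit stretch holds a match to the AP-1 motif TGACTCA and one to the SOX motif ACAATG, both in capitals. AP-1 motifs were held by 27.8% of all PROLIF-only regions, 2.48% of DIFF-only regions and 5.76% of all regions.
Klf5 downstream region, chr14:99324698-99324818: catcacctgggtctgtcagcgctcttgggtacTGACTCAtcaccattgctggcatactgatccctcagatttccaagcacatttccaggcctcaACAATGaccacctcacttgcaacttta
Besides the promoter, a region 49920 bp downstream was found in all libraries, from percentile 25.9 to 63.2, and the last region was called in DIFF replicate 4 alone.

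At *Cebpa* (ENSMUSG00000034957.10, chr7:35119293-35121928, plus strand), no region had peaks in all libraries of a single state and in none of the other. The promoter region at chr7:35118101-35119795 also lies within 3 kb of a start of *Gm45091*, and its signal cannot be divided between the genes. It had 146, 117 and 98 reads in PROLIF and 96, 131 and 146 in DIFF. A region 32557 bp upstream, at the start of *Gm35611*, was the next strongest, at percentile 87.1, 84.3 and 80.0 in PROLIF and 81.6, 82.9 and 86.0 in DIFF. A region 52726 bp downstream, chr7:35171760-35172259, was the strongest distal one, at 78.2, 71.8 and 71.6 against 66.3, 74.8 and 73.1. A weaker one 50295 bp downstream ranged from 23.6 to 61.2 in PROLIF and from 36.1 to 65.5 in DIFF. None of the 4 constant regions passed limma (adjusted p from 0.255 to 0.988).

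Weak *Cebpa* regions were divided between the states. A region 42514 bp upstream had a peak in 3 DIFF libraries, at 47.5, 34.3 and 50.6, and in PROLIF replicate 1, at 51.6. A region 41142 bp downstream had a peak in PROLIF replicates 2 and 4, at 12.0 and 28.0, and in no DIFF library. The 121 bases around its summit repeat exactly at a shift of 12 bases, and the placing of reads in such a repeat was not tested.

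*Cebpb* (ENSMUSG00000056501.3, chr2:167688915-167690418, plus strand) had 12 regions, of which 5 were constant and 4 rested on a single library. The promoter region at chr2:167688553-167690003 also lies within 3 kb of starts of *A530013C23Rik* and *Tmem189*, and its signal cannot be divided between the genes. The strongest region of the window was not the *Cebpb* promoter but that of *Gm20431*, *Tmem189* and *Gm14320*, 27233 bp upstream. It was at percentile 90.0, 82.3 and 79.1 in PROLIF and 90.1, 88.5 and 88.9 in DIFF. Distal regions lay 37096 bp upstream, 8817 bp upstream and 38474 bp downstream. The last, over an exon of *A530013C23Rik*, was at 62.6, 53.0 and 50.7 in PROLIF and 69.7, 68.8 and 69.7 in DIFF. Every DIFF library was above, and limma did not call it (adjusted p = 0.199). None of the 5 constant regions passed.

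*Cebpd* (ENSMUSG00000071637.5, chr16:15887286-15891031, plus strand) had 5 regions, 4 of them constant, and here too the strongest belonged to a neighbour. The promoter of *Mzt2*, a gene of the microtubule-nucleating machinery, was at 89.6, 92.6 and 92.5 in PROLIF and 93.9, 95.8 and 94.4 in DIFF, with every DIFF library above (limma adjusted p = 0.245). A distal region in an intron of *Prkdc*, 48609 bp upstream, ranged from 52.5 to 66.8 in PROLIF and from 50.2 to 63.8 in DIFF. An intergenic region 9969 bp upstream was at 55.6, 46.8 and 49.8 in PROLIF and 56.9, 59.3 and 64.8 in DIFF, with every DIFF library above (limma adjusted p = 0.546). The fifth region, 2380 bp downstream of the *Cebpd* start, was lower in DIFF without separating by occupancy. Its summit lay in coding sequence within the annotated spans of both *Cebpd* and *Spidr*, and which gene is coded there was not determined. It was at 70.3, 54.8 and 67.8 in PROLIF, at 42.4 and 32.8 in DIFF replicates 2 and 4, and had no peak in DIFF replicate 1. Since it lacked a peak in 1 library it was not in the limma fit.

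*Nanog* (ENSMUSG00000012396.12, chr6:122707489-122714633, plus strand) had no promoter peak but the most regions, 10 of 13 being constant and 11 more than 3 kb from any start site. An intergenic region 4769 bp upstream of the start site, chr6:122702272-122703281, was among the strongest regions of all 8 loci. Its percentile was 92.5, 94.8 and 92.6 in PROLIF and 93.5, 91.7 and 95.9 in DIFF, and its pileup 109, 100 and 77 against 102, 99 and 185 reads. The groups overlapped (limma adjusted p = 0.986). *Nanog* is the nearest protein-coding gene to it, at 4208 bp, and *Gm10224* the nearest start site, at 3244 bp. The stretch around its summit is shown because this region was open while the promoter had no peak. A match to CACCC near the summit lay outside the stretch printed.
Nanog upstream region, chr6:122702660-122702780: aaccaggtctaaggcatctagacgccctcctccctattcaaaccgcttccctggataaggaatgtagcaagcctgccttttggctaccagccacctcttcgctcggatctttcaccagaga
A region 37901 bp upstream, chr6:122669299-122670473, was at 90.6, 92.0 and 87.2 in PROLIF and 85.0, 85.7 and 87.7 in DIFF, and narrowly overlapped (limma adjusted p = 0.0874).

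The farther downstream regions of the *Nanog* window lie at or in *Slc2a3*, a glucose transporter gene of neurons. One of them lay in an intron 51412 bp from the *Nanog* start site. It was at 75.5, 66.4 and 73.1 in PROLIF and at 35.9 and 8.78 in DIFF replicates 1 and 2. It had no peak in DIFF replicate 4. Another intronic region, 53692 bp from the start site, was at 70.6, 65.2 and 68.9 in PROLIF and 70.7, 83.3 and 78.5 in DIFF, with every DIFF library above (limma adjusted p = 0.301). A DIFF-only region lay 24609 bp upstream of *Nanog*, chr6:122682773-122682970, with 21, 13 and 24 reads at percentile 44.5, 11.7 and 34.6. In its summit stretch, matches to the SOX motif ACAAAG and to CACCC adjoin within a single run of capitals, both read on the other strand.
Nanog far upstream region, chr6:122682820-122682940: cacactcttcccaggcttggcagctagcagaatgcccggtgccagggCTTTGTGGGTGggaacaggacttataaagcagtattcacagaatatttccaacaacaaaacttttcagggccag

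*Pou5f1* (ENSMUSG00000024406.16, chr17:35506018-35510772, plus strand) lies in the gene-dense major histocompatibility region, and no region of its window lay within 3 kb of its own start site. The strongest, 10947 bp downstream, lay at the starts of *Tcf19* and *Cchcr1*, at percentile 87.4, 88.5 and 70.5 in PROLIF and 90.4, 89.3 and 93.7 in DIFF. Every DIFF library was above; limma gave an adjusted p of 0.0800, and 0.0270 with the replicate block. Without PROLIF replicate 4 the unblocked value was 0.305. Of the 6 removals, only that of PROLIF replicate 2 gave a pass (limma adjusted p = 0.0259). *Nanog* and *Pou5f1* are known to have processed copies elsewhere in the genome, and histocompatibility genes have close relatives. How reads that fit several such copies were placed was not tested.

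Of the 4 DIFF-only regions, 2 lay in the *Pou5f1* window. One, 21778 bp upstream at chr17:35484034-35484305, had 18, 13 and 31 reads at percentile 33.7, 11.7 and 50.6. The other, 25822 bp downstream at chr17:35531617-35531948, lay 1253 bp from the start of *Psors1c2* and had 33, 22 and 41 reads at percentile 61.8, 39.8 and 62.0. It was the strongest DIFF-only region of the 8 loci. Its summit stretch is a tandem repeat that matches itself at 100% of bases when shifted by 50, so the placing of its reads is uncertain. The first stretch has a CACCC match in capitals. The second has none, and the match to CAGATG near its summit lay outside the stretch printed.
Pou5f1 upstream region, chr17:35484180-35484300: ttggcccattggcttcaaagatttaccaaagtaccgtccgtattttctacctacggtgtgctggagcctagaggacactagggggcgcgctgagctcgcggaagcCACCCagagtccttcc
Pou5f1 downstream region, chr17:35531780-35531900: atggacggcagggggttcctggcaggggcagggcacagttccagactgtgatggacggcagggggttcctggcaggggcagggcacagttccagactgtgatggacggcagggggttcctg

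Next to this repeat, a region over *Psors1c2*, chr17:35534358-35534824, was stronger in DIFF. It lay between 59.9 and 71.1 in the DIFF libraries, against 41.8, 24.9 and 39.6 in PROLIF replicates 1, 2 and 4 (difference 0.92 ± 0.29, adjusted p = 0.0328), and the call was lost when any library but PROLIF replicate 4 was left out. A region 43728 bp downstream, 1982 bp from the start of *Cdsn*, a gene of cornified epithelium, was stronger in PROLIF. It was at 88.8, 88.5 and 83.1 against 71.0, 78.9 and 83.3 (difference -0.53 ± 0.15, adjusted p = 0.0170). Its groups overlapped through DIFF replicate 4, and leaving out DIFF replicate 1 or PROLIF replicate 2 took the adjusted p past 0.05, to at most 0.0734. A region 38895 bp downstream had a peak in the DIFF libraries, at 46.2, 40.0 and 52.9, and in PROLIF replicate 1, at 20.7. The strongest distal region, 51023 bp downstream in *Cdsn*, ranged from 40.9 to 58.4 in PROLIF and from 37.5 to 50.2 in DIFF (limma adjusted p = 0.348).

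Over the 38 constant regions, limma thus called 3 stronger in PROLIF (7.89%, beside 11.2% of 40102 constant regions) and 2 stronger in DIFF (5.26%, beside 9.80%), all of them around *Klf2* and *Pou5f1*. With replicate number as a block the counts were 3 (beside 13.8%) and 4 (10.5%, beside 13.4%), the 2 added being the *Klf4* region at 17594 bp and the *Tcf19* promoter. Every DIFF library stood above every PROLIF library at 10 of the 38 (26.3%, beside 21.1%). Taking same-numbered libraries as pairs, and asking for a peak gained in at least 2 of 3 pairs and lost in none, 7 regions gained a peak in DIFF (9.86%, beside 11.1%) and 3 in PROLIF (4.23%, beside 6.30%). The 3 regions added for DIFF lay at *Klf4*, *Cebpa* and *Pou5f1*, and the 2 for PROLIF at *Cebpa* and *Pou5f1*. With counts this small, none of these shares is read as different from its background.

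**Figure D4:**
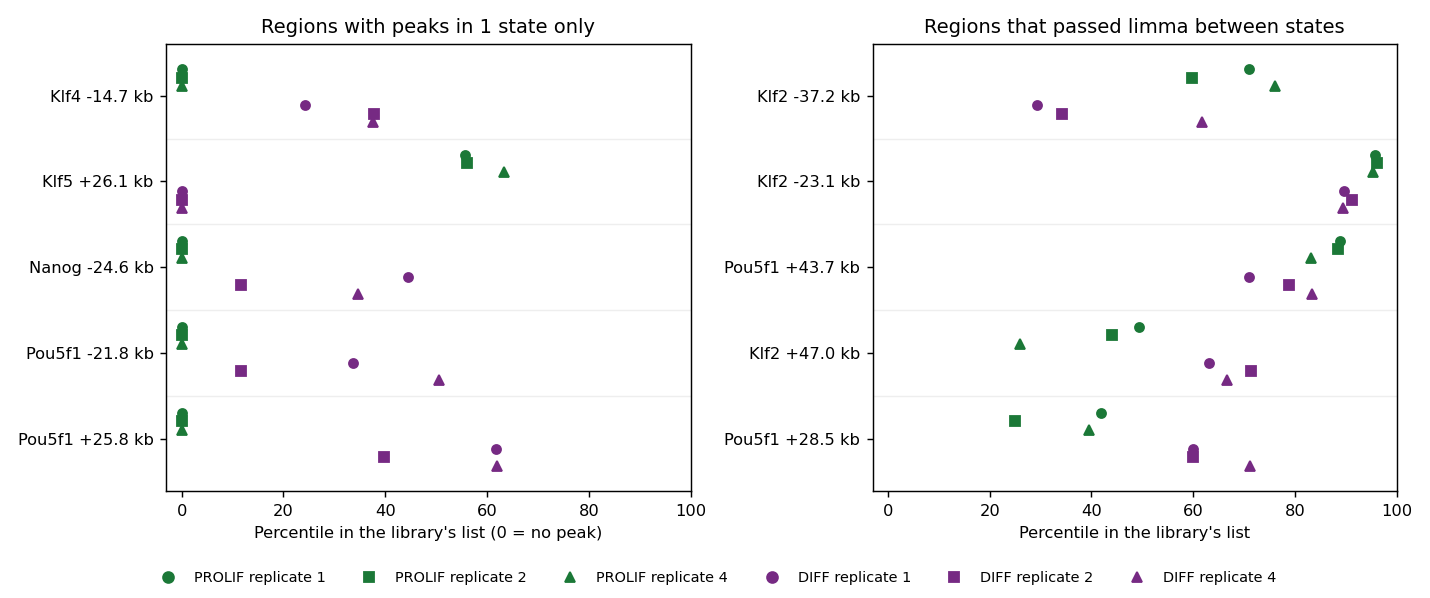
Percentile in each library (horizontal axis) of the 5 regions with peaks in a single state (left, 0 for no peak) and of the 5 regions that passed limma (right), labelled by gene and distance from its start site in kb; PROLIF is green and DIFF purple. On the left only the *Klf5* region has its peaks in PROLIF; on the right the groups do not overlap at *Klf2* -23.1 kb, *Klf2* 47.0 kb and *Pou5f1* 28.5 kb.

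Sequence motifs were counted on both strands within 100 bp of each summit. CACCC, a core of KLF binding, was present in 39 of the 71 regions (54.9%, beside 38.6% of all regions and 41.8% of constant ones), and GGGCGG, bound by KLF and SP proteins, in 14 (19.7%, beside 12.7% and 26.1%). The CEBP form TTGCNNAA was present in 1 region, in the *Cebpb* window (1.41%, beside 8.30%). The octamer ATGCAAAT, bound by POU factors, was present in 1, a *Nanog* region 46777 bp upstream that was constant (1.41%, beside 1.90%). SOX motifs ACAAAG or ACAATG were found in 10 (14.1%, beside 29.1%), AP-1 motifs TGACTCA or TGAGTCA in 4 (5.63%, beside 5.76%), and the E-boxes CAGCTG in 15 (21.1%, beside 19.6%) and CAGATG in 14 (19.7%, beside 17.3%). One weak *Cebpb* region alone held 12 CACCC matches, in a repetitive stretch. The 71 regions come from 8 places, so these shares are descriptions and carry no test, and a match of letters is not a bound site.

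**Figure D5:**
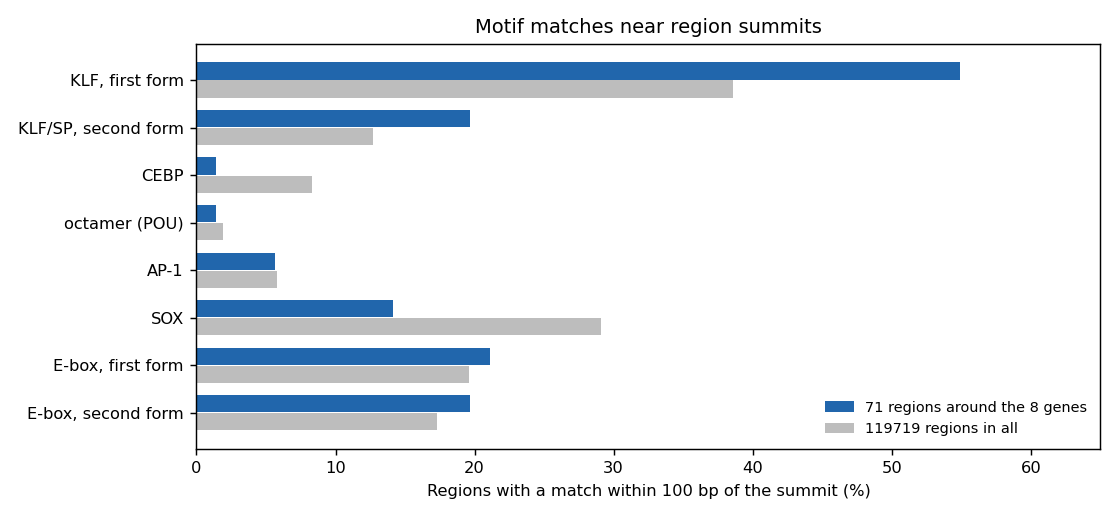
Share of regions with a motif match within 100 bp of the summit (horizontal axis, percent), for the 71 regions around the 8 genes (blue) and all 119719 merged regions (grey). The KLF forms are CACCC (upper) and GGGCGG (lower) and the E-boxes CAGCTG (upper) and CAGATG (lower); CACCC stands at 54.9% against 38.6% and SOX motifs at 14.1% against 29.1%.

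In the wider families, counts are to be read beside the shares of all protein-coding genes: 64.4% with a promoter peak in all libraries, 25.4% with none, 17.9% above in every DIFF library and 3.59% above in every PROLIF library. Of 14 other KLF genes, 12 had a promoter peak in all libraries, and *Klf14* and *Klf17* had none. *Klf1*, the erythroid factor, was above in every DIFF library, at 88.1, 86.4 and 87.5 against 83.4, 81.7 and 58.2, and so was *Klf6*, a gene of injury responses, at 99.2, 98.5 and 98.6 against 96.5, 93.7 and 93.8. *Klf12*, a repressor, was above in every PROLIF library, at 93.2, 89.4 and 88.2 against 75.9, 82.8 and 82.6. All 3 other CEBP genes had a peak in all libraries, and *Cebpe*, a granulocyte factor, was above in DIFF, at 58.1, 66.5 and 64.8 against 51.6, 46.8 and 25.9. Of 15 other pluripotency genes, 6 had a promoter peak in all libraries, 4 in some, and *Zfp42*, *Lin28a*, *Fgf4*, *Dppa5a* and *Tcl1* in none. No gene of that list separated the states.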

How the data were processed

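The authors clipped reads with Cutadapt, trimmed with Trimmomatic and mapped pairs to GRCm38 (mm10) with Bowtie2. Picard marked duplicates. MACS2 (narrow peaks, no model, FDR 0.05) was run on every library by itself. Versions and any shift for the transposase are not given in the sources used here, and a shift would move peak edges. The deposited lists give a score (10 times the −log10 q, as a whole number), a fold enrichment that is a ratio to the local background, and −log10 p and −log10 q as deposited. DiffBind, which the study used on reads, could not be run on peak lists.

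Peaks on the 19 autosomes, X and Y were ranked by −log10 p within each list, and from 150 to 311 lines per list were left out. Pileup and background were solved from the fold and p of each peak under the Poisson model of the caller, and came out whole within 0.05 reads for 100% of the peaks that could be solved. The strongest peaks, at most 0.981% of a list, could not be. Regions found in all libraries were tested with limma 3.58.1 (R 4.3.3) on normal scores of the ranks, with Benjamini-Hochberg adjustment over all 40102 regions. The fit and the region calls were tested on simulated data. Single values were compared by exact permutation of the labels PROLIF and DIFF, two-sided. The tools were scipy 1.17.1, pandas 2.3.3, numpy 2.4.6 and Python 3.11.15. Sequences came from the GRCm38 reference and the RefSeq promoter table of the same build.

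Replicate numbers come from the labels. The study describes RNA-seq and ATAC-seq of the same cultures. It does not say that same-numbered PROLIF and DIFF libraries share a culture. Deviations of the normal scores from the state means correlated at 0.142, 0.155 and 0.126 between same-numbered libraries (0.135, 0.149 and 0.124 on autosomes alone). Between different numbers the correlations were -0.106 to -0.0331. Deviations cancel out within a state, so positive values for same numbers force negative ones for different numbers on average. The numbers served as pairs in the blocked analyses because the same-number values were positive, and a shared culture was not established. Whether replicates were separate animals is not stated. The p-values therefore rest on differences between these libraries, which may not stand for differences between animals.

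Genes and regions named are the 8 genes, every region of a single state or past limma, the promoter and the 3 strongest distal regions of each gene, neighbours with a start within 3 kb, and genes of the wider lists that separated the states or had no promoter peak. A few further regions with a peak in most libraries of a single state, or with repeats or many motif matches, were chosen after their values were seen. The genes and lists were chosen with earlier results of these data known. One planned marker list is not reported here. Alternatives were q of 0.01 or 0.001, lists of equal length, the strongest 20000 peaks, windows of 10 or 100 kb, promoters of 1 kb, a cover of 50%, ranking by fold, each library left out and the replicate block.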

Additional observations from a re-analysis of the deposited data

How the results depend on the processing

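Of 173 alternative values, 137 kept the direction and, for counts, stayed within 1.5 times the value reported; the 26 promoter values of *Nanog* and *Pou5f1*, 0 under every setting, are not counted. With the strongest 20000 peaks of each list, 13 regions were found in all libraries and none in a single state (0 and 0). Limma called 0 in DIFF and 1 in PROLIF, beside 823 and 1128 of all 13332 regions tested. The difference in peaks was -2.33. Windows of 10 kb hold fewer regions and left 13 in all libraries, 0 DIFF-only, 0 called in either state and a difference of -0.667 peaks. Windows of 100 kb gave 71 in all libraries, 2 PROLIF-only, and 5 and 7 called in DIFF and PROLIF. For both window sizes the shares called over all 40102 regions stayed at 9.80% in DIFF and 11.2% in PROLIF. A cover of at least 50% gave 21 in all libraries and 2 in each single state. Ranking by fold enrichment gave 1 region called in DIFF, beside 2485 of all 40102 regions. It gave promoter differences of 2.48 at *Cebpa*, 10.4 at *Klf4* (reported 5.44) and 2.66 at *Klf5* (reported 0.692). With the strongest 20000 peaks these were -9.61, 14.4 and 1.41, and that of *Cebpb* was 0 (reported 10.6). With lists of equal length *Cebpa* was at -3.21 and *Klf5* at 0.471. The *Cebpd* promoter difference of 1.39 became -0.120 with lists of equal length and -0.359 with the strongest 20000 peaks. Where the construction does not show it, the cause was not tested.

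Same-numbered libraries as pairs (the replicate block) gave 7 DIFF-only and 3 PROLIF-only regions under a looser rule and 4 called in DIFF, and changed no other call. With 3 pairs the smallest p of sign flips is 0.25.

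Leaving out 1 library gave 4 to 8 DIFF-only and 1 to 3 PROLIF-only regions, both highest without PROLIF replicate 1. The shares of such regions among all merged regions were not counted with a library left out. Limma then called 0 to 3 in DIFF (0 without PROLIF replicate 1 or any of the DIFF replicates, 1 without PROLIF replicate 4) and 2 to 4 in PROLIF. Calls over all regions fell too. In DIFF they went from 3932 to between 1989 (without DIFF replicate 4) and 3626 (without PROLIF replicate 4). In PROLIF they went from 4489 to between 3349 (without DIFF replicate 4) and 4010 (without DIFF replicate 1). The peak difference ranged from 2.00 to 8.50 and the covered difference from -1.55 to 1.21 kb, with a changed sign without PROLIF replicate 1 (1.21), PROLIF replicate 2 (0.110) or DIFF replicate 1 (1.06). Promoter differences then ranged from 3.47 to 7.80 at *Klf4*, 0.295 to 0.943 at *Klf5*, 0.272 to 1.01 at *Klf2*, -3.04 to -1.06 at *Cebpa*, 1.45 to 17.2 at *Cebpb* and 0.227 to 2.80 at *Cebpd*. Called pileups began at 10 to 15 reads, so weaker sites were not seen.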
